A study of Mus musculus with 13 samples.

Results

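The genes described here are the 4 Id genes (Id1, Id2, Id3 and Id4) and the 2 inhibitory Smad genes (Smad6 and Smad7), 6 of the 18193 genes that the arrays measured with a probe set of a single gene symbol. They were chosen by symbol, with the fall of Id3 under dabrafenib in pmel-1 recipients already known. The comparison of dabrafenib with vehicle in those recipients is therefore a description here and carries no test. RNA came from SM1 tumours, a mouse melanoma line with mutant BRAF, grown in C57BL/6 mice and measured on 13 Affymetrix mouse arrays. All mice received splenocytes by adoptive transfer. Control recipients (Mock) were given C57BL/6 splenocytes, and pmel-1 recipients (Pmel) were given splenocytes of pmel-1 mice, whose transgenic T cell receptor recognises a pigment cell antigen. Control recipients had vehicle (V, 2 arrays) or dabrafenib with trametinib (D+T, 2 arrays). Pmel-1 recipients had vehicle (2 arrays), dabrafenib (D, 2 arrays), trametinib (T, 2 arrays) or both drugs (3 arrays). Dabrafenib inhibits mutant BRAF and trametinib inhibits MEK, the next kinase of the pathway that ends in ERK. The sources used here give no drug doses, times or ages of the mice. Nor do they say whether replicates came from separate animals, so the spread that the p-values rest on is that of these samples and may be technical.

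Id proteins are helix-loop-helix proteins without a DNA-binding region. They pair with E proteins such as Tcf3 and keep them and their tissue-specific partners off E boxes, and so hold back differentiation. Bone morphogenetic proteins (BMPs) are the classic inducers of Id1, Id2 and Id3. The ligands bind paired receptors, the receptors phosphorylate Smad1, Smad5 or Smad9, and these enter the nucleus with Smad4. Smad6 and Smad7 are induced by the same signals and block them, Smad6 chiefly on the BMP branch and Smad7 on both the BMP and TGF-beta branches. In melanoma, Id1 is known for repressing the cell cycle inhibitor gene Cdkn2a, and Id4 is best known from neural development.

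The stretch of 250 bases before the transcription start is shown for Id3, the member whose fall led to the choice, and for Id2, whose level did not follow it. Both come from RefSeq on build GRCm38.p6, whose promoter table matched 4 of the 6 members (Id2, Id3, Id4 and Smad6). The Id3 stretch is at chr4:136143572-136143821 on the plus strand, and the Id2 stretch is at chr12:25096093-25096342 on the minus strand. Capitals mark GTCT or its complement AGAC, the core to which Smads bind, and GGCGCC, the core of BMP response elements.
Id3: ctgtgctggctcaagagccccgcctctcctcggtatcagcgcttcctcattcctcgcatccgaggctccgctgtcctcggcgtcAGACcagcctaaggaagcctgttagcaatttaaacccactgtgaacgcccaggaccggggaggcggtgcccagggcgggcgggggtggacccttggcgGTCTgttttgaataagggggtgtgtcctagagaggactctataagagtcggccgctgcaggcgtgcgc
Id2: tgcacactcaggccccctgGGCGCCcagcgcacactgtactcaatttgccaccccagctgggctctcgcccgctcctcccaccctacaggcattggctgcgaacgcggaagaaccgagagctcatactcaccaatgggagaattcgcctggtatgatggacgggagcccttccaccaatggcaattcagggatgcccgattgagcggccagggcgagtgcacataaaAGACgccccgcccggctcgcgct
Searched on both strands, the Smad core occurred 2 times for Id3, 1 time each for Id2 and Smad6, and 0 times for Id4. It is short, and 82.9% of the 32851 promoters of this length hold it. The GGCGCC core, in 9.59% of promoters, occurred 1 time each for Id2 and Id4 and 0 times for Id3 and Smad6. The ETS sequence CCGGAAG, bound by factors such as Etv4 and present in 6.91% of promoters, occurred 0 times in the 4 stretches. Only this full sequence was searched, and both stretches shown hold its shorter part GGAA. The GC box GGGCGG, in 32.7% of promoters, was in all 4, and an E box (CANNTG, in 66.2%) was in that of Id2 alone. These are matches of letters only.

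Values are log2 intensities, so a difference of 1 is a doubling. All 6 members passed the filter on low values, which kept 13783 genes. A gene is said to rise or fall where limma's moderated test gave a Benjamini-Hochberg adjusted p under 0.05 over those genes, and errors after ± are standard errors of the fit unless called SD. Melanocyte markers averaged 11.97 to 12.08 on the 4 vehicle arrays and 12.61 to 12.76 on the drug-treated arrays, without overlap, with 0 of 7 under the filter level of 5.79 on all arrays. Single markers differed. Mlana overlapped (12.93 to 13.06 with vehicle, 12.95 to 13.30 with drugs), while Tyr did not (12.80 to 12.97 against 13.38 to 13.91). Tyrp1 was under the filter level on every vehicle and control array (4.87 to 5.50). T cell markers averaged 5.31 to 5.52 on the vehicle and control arrays and 5.73 to 6.32 on the arrays of drug-treated pmel-1 recipients, with 2 of 7 under the filter level throughout. Of these, Cd3d, Cd3e and Cd3g were higher in the latter without overlap. Cd2, Cd4, Tcra and Cd8a overlapped, Cd8a at 6.29 to 6.52 against 6.42 to 6.54. As these are bulk tumours, fewer cells of a type and less RNA per cell cannot be told apart. The 3′ to 5′ log2 ratio of the beta-actin and Gapdh control probe sets, a sign of RNA degradation, was 0.18 to 0.42 on the 6 vehicle and control arrays and 0.60 to 1.65 on the 7 arrays of drug-treated pmel-1 recipients. In pmel-1 recipients every drug-treated array was above both vehicle arrays, while in control recipients the treatments overlapped. One vehicle array, pmel-1 replicate 1, read higher than its partner for 5 of the 6 members. Most differences of members called or described against the vehicle of pmel-1 recipients are also given without it.

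In control recipients the drug combination lowered Id1, Id3 and Smad7. The arrays of these recipients were not in the dabrafenib comparison that led to the choice. The choice was still made with earlier results of these data known, and the fit drew its variance from all arrays. These tests are therefore not shown to be independent of the choice. Id3 read 10.97 and 10.46 with vehicle and 8.30 and 8.32 with the combination. The combination arrays lay far below both vehicle arrays and close to each other. Id3 fell by 2.40 ± 0.26 on the log2 scale, 5.29-fold (limma adjusted p = 5.76e-05), the 41st most negative change of all genes tested. Id1, like Id3 a target of the BMP branch, read 9.59 and 8.90 with vehicle and 7.19 and 6.96 with the combination. Its groups were again well apart, and Id1 fell by 2.17 ± 0.33, 4.50-fold (limma adjusted p = 4.42e-04), the 55th most negative. Smad7, the broad inhibitor of both branches, read 9.05 and 9.01 with vehicle and 8.47 and 8.30 with the combination. It fell by 0.64 ± 0.20, 1.56-fold (limma adjusted p = 0.0259), a smaller change that did not pass when any 1 of the 4 arrays was left out, with adjusted p from 0.0539 to 0.144.

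The other 3 members did not pass in control recipients. Id2, which is widely expressed in immune and other cells, read 9.68 and 9.01 with vehicle and 9.78 and 9.85 with the combination. The difference was 0.47 ± 0.33 (limma adjusted p = 0.312), opposite in sign to Id1 and Id3. Id4 read 13.44 and 13.32 against 13.01 and 12.39, with all 3 of its probe sets lower under the combination. Its difference was -0.68 ± 0.44, with a 95% interval from -1.66 to 0.29 (limma adjusted p = 0.270). Smad6, the BMP-branch inhibitor, read 6.65 and 6.28 against 6.39 and 6.92, so the groups overlapped. Its difference was 0.19 ± 0.43 (limma adjusted p = 0.786). In all, 3 of the 6 members fell and 0 rose. Of all genes tested, 35.4% changed in this comparison, 16.7% down and 18.7% up, and the median change of all genes was -0.0032. Endothelial markers, from a cell type that also expresses Id1 and Id3, averaged 6.93 to 6.99 on the vehicle arrays and 7.07 to 7.38 on the combination arrays, with 0 of 8 under the filter level on all arrays. Within that list Emcn was lower with the combination (8.20 and 8.42 against 7.87 and 7.70) and Vwf was higher (5.16 and 4.81 against 6.55 and 7.08). Macrophage markers averaged 8.17 to 8.19 with vehicle and 8.90 to 9.21 with the combination, with 0 of 7 under the filter level on all arrays. Mrc1 overlapped (8.33 and 7.59 against 8.21 and 8.33), and the others were higher. Fibroblast markers averaged 8.57 to 10.00 with vehicle and 10.54 to 11.13 with the combination, with 0 of 6 under the filter level on all arrays. These too were mixed. Dcn (7.61 and 8.44 against 10.58 and 11.11), Lum and Col3a1 were higher with the combination. Col1a1 and Col1a2 overlapped, and Pdgfra was lower (6.85 and 7.37 against 6.37 and 6.78). The part of these cell types and of the higher average of melanocyte markers in the result was not tested.

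**Figure D1:**
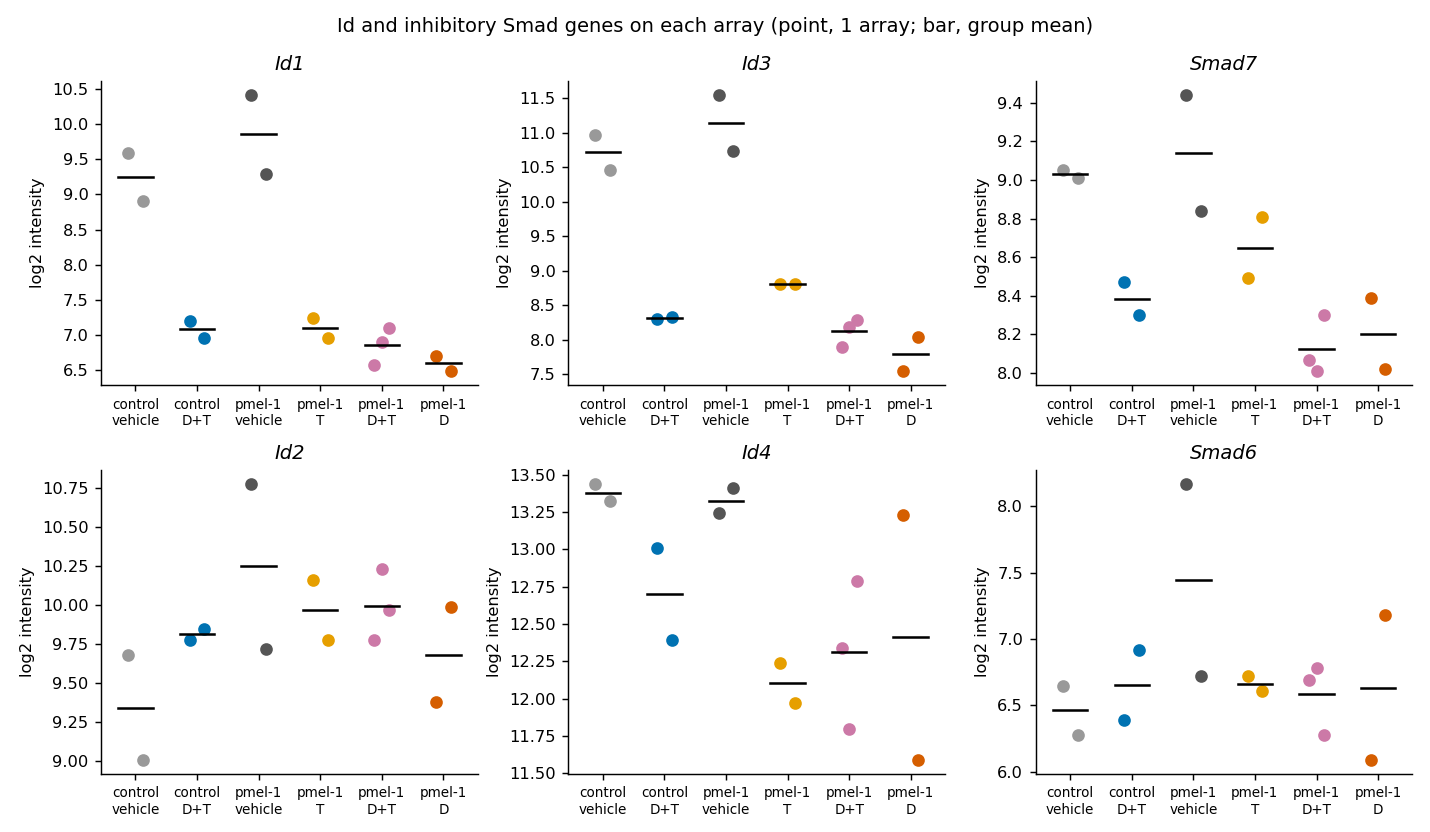
Log2 intensity of each member on each of the 13 arrays (points), by group, with the group mean as a bar; D is dabrafenib, T trametinib, and control and pmel-1 name the splenocytes given. Id1 and Id3 lie lower on every drug-treated array than on every vehicle array, Id3 between 7.54 and 8.81 against 10.46 to 11.55, while Id2 and Smad6 overlap across most groups.

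In pmel-1 recipients Id1 fell with the combination and with trametinib, and Smad7 fell with the combination. Both comparisons use the 2 vehicle arrays of the choice, so Id3 is described without a test and the other 5 members were tested. Id1 read 10.42 and 9.29 with vehicle, 7.24 and 6.96 with trametinib and 6.57, 6.90 and 7.09 with the combination. All 5 drug-treated arrays lay far below the lower vehicle array. Id1 fell by 3.001 ± 0.297 with the combination, 8.01-fold (limma adjusted p = 2.38e-05), and by 2.76 ± 0.33 with trametinib, 6.77-fold (limma adjusted p = 1.04e-04). Without vehicle replicate 1 the differences were -2.44 and -2.20, and both still passed (limma adjusted p = 2.62e-04 and 7.76e-04). Id3 read 11.55 and 10.73 with vehicle, 8.80 and 8.81 with trametinib and 7.89, 8.18 and 8.28 with the combination. Its differences were -2.33 ± 0.26 with trametinib and -3.02 ± 0.24 with the combination, and -1.92 and -2.61 without vehicle replicate 1.

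Smad7 read 9.44 and 8.84 with vehicle, 8.49 and 8.81 with trametinib and 8.07, 8.01 and 8.30 with the combination. The combination arrays were the lowest, and the trametinib arrays came close to the lower vehicle array. Smad7 fell by 1.01 ± 0.18 with the combination, 2.01-fold (limma adjusted p = 9.70e-04). Its difference was -0.71 without vehicle replicate 1 and still passed (limma adjusted p = 0.0158). Adjusted for the 3′ to 5′ ratio its difference was -0.61 and no longer passed (limma adjusted p = 0.0853). With trametinib the difference was -0.49 ± 0.20 (limma adjusted p = 0.0745), and it rested on the vehicle array: -0.19 (limma adjusted p = 0.542) without replicate 1 and -0.79 (limma adjusted p = 0.0144) without replicate 2. The second Smad7 probe set lay under the filter level in all 6 groups.

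Id4 read 13.24 and 13.41 with vehicle, 12.24 and 11.97 with trametinib and 12.34, 11.80 and 12.79 with the combination. Every drug-treated array lay below both vehicle arrays. With trametinib Id4 fell by 1.22 ± 0.44 (limma adjusted p = 0.0493), a call lost when any 1 of the 4 arrays was left out (adjusted p from 0.106 to 0.183). With the combination the difference was -1.01 ± 0.40 (limma adjusted p = 0.0620). It was -1.10 (limma adjusted p = 0.150) without vehicle replicate 1 and passed without combination replicate 3 (-1.25, limma adjusted p = 0.0371). Id4 was also the member that moved most with the 3′ to 5′ ratio. Adjusted for it, its difference was -0.28 with trametinib (limma adjusted p = 0.650) and 0.16 with the combination (limma adjusted p = 0.836). Adipocyte markers, genes of fat cells, averaged 6.56 to 6.62 with vehicle in pmel-1 recipients, with 0 of 4 under the filter level on all arrays. They averaged 5.95 to 9.40 on the dabrafenib arrays, 6.50 to 8.73 on the trametinib arrays and 6.31 to 9.17 on the combination arrays. Single markers differed. Fabp4 read 10.26 and 10.44 with vehicle and 7.95 to 11.73 with drugs, and Adipoq 5.50 and 4.75 against 4.92 to 10.32. Macrophage markers averaged 8.63 to 8.75 with vehicle, 8.74 to 9.16 with trametinib and 9.71 to 10.20 with the combination. With trametinib Mrc1 was lower (9.07 and 9.50 against 8.45 and 8.02), Cd68 overlapped and the others were higher. Mrc1 overlapped with the combination. The part of fat cells and macrophages in the result was not tested.

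**Figure D2:**
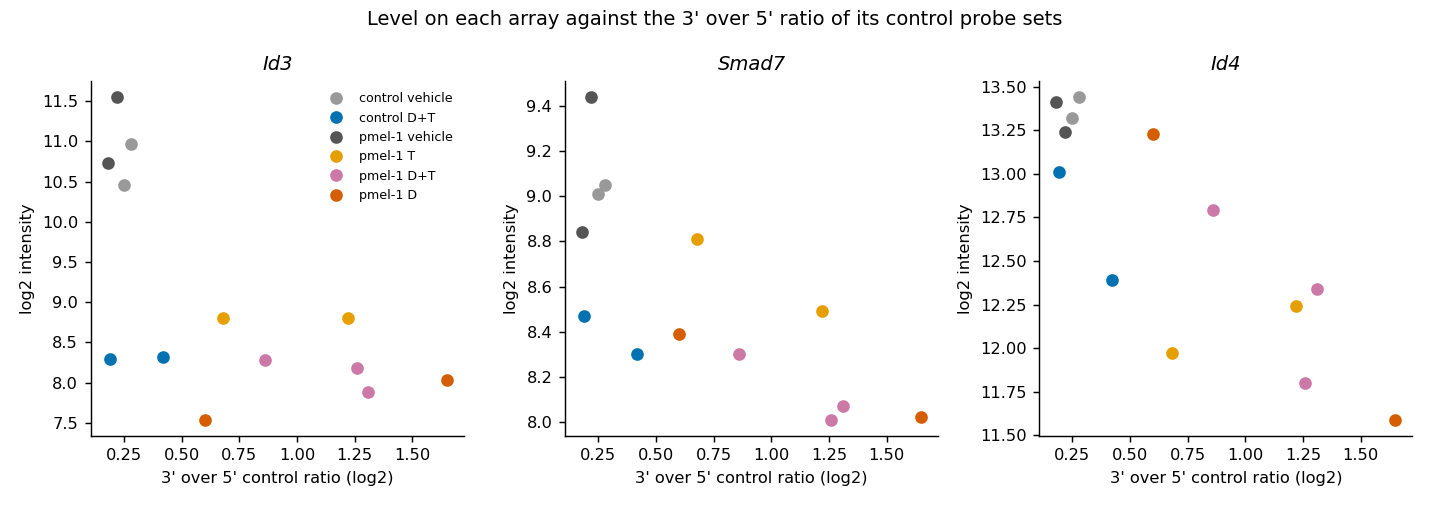
Log2 intensity of Id3, Smad7 and Id4 on each array (points, coloured by group) against the log2 3′ to 5′ ratio of the control probe sets on that array. Id3 reads 8.30 and 8.32 on the 2 control-recipient combination arrays, at ratios of 0.19 and 0.42, within the 7.54 to 8.81 of the drug-treated pmel-1 arrays at ratios up to 1.65, whereas Id4 is lowest, at 11.59, on the array with the highest ratio.

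Id2 and Smad6 followed neither pattern in pmel-1 recipients. Id2 read 10.78 and 9.72 with vehicle, 10.16 and 9.78 with trametinib and 9.78, 10.23 and 9.97 with the combination, so the groups overlapped. Its differences were -0.28 ± 0.33 (limma adjusted p = 0.560) and -0.25 ± 0.30 (limma adjusted p = 0.547), and they turned to 0.25 and 0.28 without vehicle replicate 1. Smad6 read 8.17 and 6.72 with vehicle, 6.72 and 6.61 with trametinib and 6.69, 6.78 and 6.28 with the combination. Only vehicle replicate 1 stood apart. The Smad6 differences were -0.78 ± 0.43 (limma adjusted p = 0.184) with trametinib and -0.86 ± 0.40 (limma adjusted p = 0.0995) with the combination. They were -0.060 and -0.14 without vehicle replicate 1, and -1.50 and -1.58, both past the threshold (limma adjusted p = 0.0177 and 0.0089), without replicate 2. Adjusted for the 3′ to 5′ ratio they were -1.51 and -1.78 and also passed (limma adjusted p = 0.0352 and 0.0276). Of the 5 members tested, 2 fell and 0 rose with the combination, where 45.6% of all genes changed, 21.2% down and 24.3% up. With trametinib 2 of 5 fell and 0 rose, where 38.6% of all genes changed, 19.1% down and 19.5% up.

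**Figure D3:**
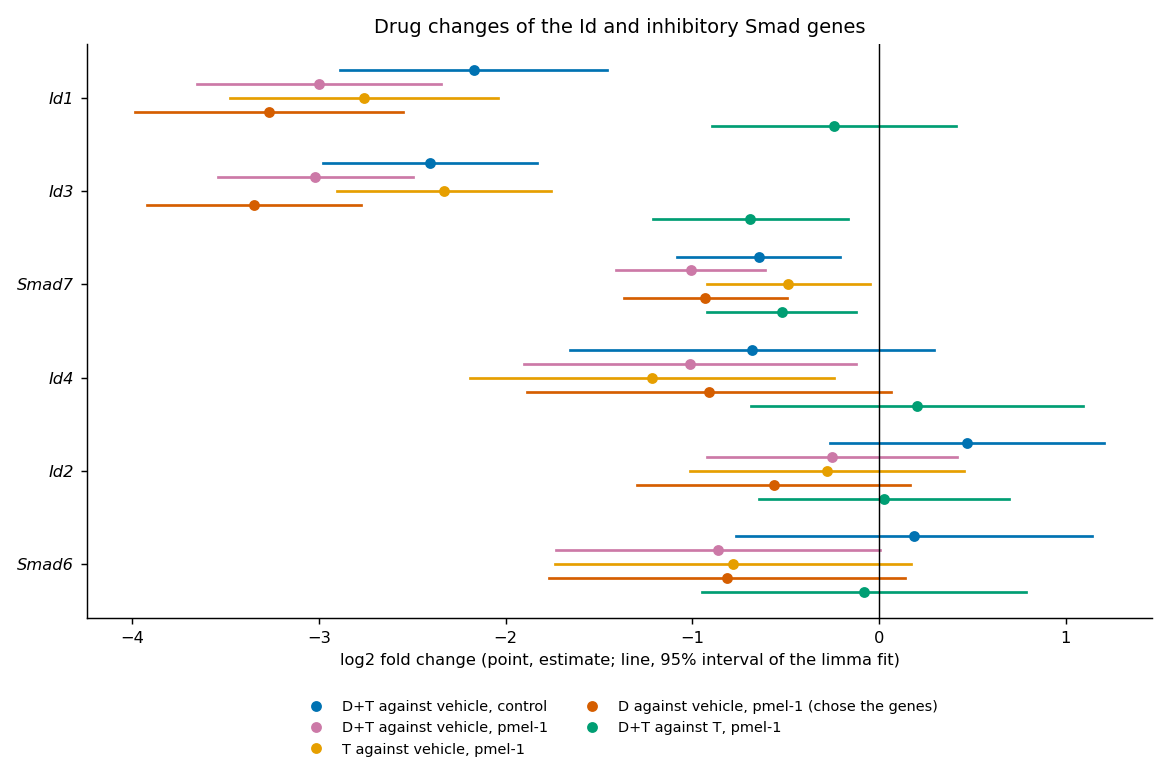
Log2 fold change of each member (points) with the 95% interval of the limma fit (lines) in 5 drug comparisons; the comparison of dabrafenib with vehicle chose the genes and is drawn as a description. In control recipients the intervals of Id1, Id3 and Smad7 lie below 0, and those of Id2, Id4 and Smad6 include 0.

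Under dabrafenib alone, the condition that led to the choice, Id3 read 7.54 and 8.03, Id1 6.70 and 6.48, and Smad7 8.39 and 8.02. These lay below all vehicle arrays. Their differences from vehicle, given as descriptions, were -3.35 ± 0.26 for Id3, -3.27 ± 0.33 for Id1 and -0.93 ± 0.20 for Smad7. Without vehicle replicate 1 they were -2.94, -2.71 and -0.63. The 2 dabrafenib arrays disagreed for the other members, reading 13.23 and 11.59 for Id4, 9.38 and 9.99 for Id2, and 6.09 and 7.18 for Smad6. The second Id2 probe set read 9.25 and 9.54, below both vehicle arrays, a described difference of -0.83 ± 0.28. Vehicle replicate 1 stood apart there, at 10.81 against 9.65 for replicate 2, and the difference without it was not computed. Against trametinib alone, Id3 was lower with dabrafenib by 1.02 ± 0.26, again as a description. Ordered by group mean, Id3 ran from vehicle in pmel-1 recipients (11.14, SD 0.58) and in control recipients (10.71, SD 0.37), which overlapped, down to trametinib (8.81, SD 0.01). Below that came the combination in control recipients (8.31, SD 0.01) and in pmel-1 recipients (8.12, SD 0.20), which did not overlap, and dabrafenib (7.79, SD 0.35), which overlapped the latter. The order of Id1 was the same, but its 4 drug-treated groups, with means from 6.59 to 7.10, each overlapped the next.

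Adding dabrafenib to trametinib in pmel-1 recipients changed 0 of 6 members by limma's adjusted p, and 2 of 6 had an unadjusted p under 0.05. Those were Id3, lower by 0.69 ± 0.24 without overlap (limma adjusted p = 0.215), and Smad7, lower by 0.52 ± 0.18 without overlap (limma adjusted p = 0.217). The differences of Id1, Id2, Id4 and Smad6 lay between -0.24 and 0.20. Of all genes tested, 1.1% changed.

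The kind of splenocytes changed none of the tested members by limma's adjusted p. Under the combination the difference between pmel-1 and control recipients ranged from -0.39 ± 0.40 for Id4 to 0.18 ± 0.30 for Id2. For Id3 it was -0.19 with a 95% interval from -0.72 to 0.33, and for Id1 -0.22 with an interval from -0.87 to 0.43. By limma 0 of 6 members were called, 0 of 6 had an unadjusted p under 0.05, and 4.24% of all genes changed. Under vehicle 0 of 5 members were called by limma and 2 of 5 had an unadjusted p under 0.05. These were Id2 (0.91 ± 0.33, limma adjusted p = 0.282) and Smad6 (0.98 ± 0.43, limma adjusted p = 0.366), both higher in pmel-1 recipients. Without vehicle replicate 1 the differences were 0.38 and 0.26. Of all genes 0% were called here by limma, with 1822 at an unadjusted p under 0.05. The test of whether the combination's effect differed between the kinds of recipient called 0 of 5 members by limma (0 of 5 unadjusted) and 0.283% of all genes. Its estimate for Id1 was -0.83 ± 0.44 (limma adjusted p = 0.384), and -0.27 without pmel-1 vehicle replicate 1. For Id3 it was -0.62 ± 0.35, as a description, and -0.20 without that array. For Id2 it was -0.725 ± 0.45 (limma adjusted p = 0.456), and -0.19 without that array. On the second Id2 probe set, whose pmel-1 vehicle arrays read 10.81 and 9.65, it was -1.01 ± 0.38, not tested. These comparisons share arrays with those of the combination above.

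Around the members, some genes of each list of the BMP and TGF-beta pathway changed with the combination in control recipients. The counts stand against the 35.4% of all genes that changed in this comparison, and no list was tested against the rest or against another list. Of the ligands, 2 of 12 tested fell and 1 rose, with a median of -0.11. Bmp7 read 10.87 and 11.07 with vehicle and 8.96 and 7.48 with the combination. It fell by 2.75 ± 0.62, 6.71-fold (limma adjusted p = 0.0050). Bmp4, another ligand of the Id-inducing branch, read 7.61 and 7.44 with vehicle and 5.38 and 5.41 with the combination, under the filter level on both arrays, so no fold is given (limma adjusted p = 9.94e-06). Tgfb2, a ligand of the other branch, rose by 0.83 ± 0.12 (limma adjusted p = 3.88e-04). In pmel-1 recipients Bmp7 differed by -2.88 ± 0.56 with the combination (limma adjusted p = 0.0016) and by -1.99 ± 0.62 with trametinib (limma adjusted p = 0.0243), against the vehicle arrays that both share. Without vehicle replicate 1 the trametinib difference of Bmp7 was -2.03 and no longer passed (limma adjusted p = 0.0878), while that of the combination did (limma adjusted p = 0.0146). Bmp4 read 7.35 and 7.82 with vehicle, 5.68 and 6.09 with trametinib and 5.62, 5.57 and 5.34 with the combination, the last all under the filter level. It fell in both comparisons (limma adjusted p = 5.54e-06 with the combination and 4.35e-05 with trametinib) and also without vehicle replicate 1.

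Of 13 receptors and co-receptors tested, 3 rose and 0 fell, with a median of 0.14. The co-receptor Rgmb rose by 1.49 ± 0.24, the co-receptor Tgfbr3 by 0.95 ± 0.16 and the type II receptor Bmpr2 by 0.45 ± 0.11 (limma adjusted p = 7.66e-04, 8.11e-04 and 0.0099). Of 5 signalling Smads 1 rose and 1 fell, with a median of 0.12. Smad5 of the BMP branch rose by 0.58 ± 0.13 and Smad2 of the TGF-beta branch fell by 0.51 ± 0.14 (limma adjusted p = 0.0039 and 0.0157). For Tgfbr3, Bmpr2, Smad5 and Smurf2 another probe set went the opposite way, 4 of the 22 other probe sets of the genes named from these lists.

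Among antagonists and feedback regulators 3 of 12 rose and 1 fell, with a median of 0.09. Bambi, a decoy receptor that BMP signals induce, fell by 1.65 ± 0.24, 3.15-fold, from 8.94 and 9.01 to 7.55 and 7.09 (limma adjusted p = 3.37e-04). Twsg1, a secreted BMP-binding protein, rose by 0.75 ± 0.15, and Smurf2, a ubiquitin ligase that works with Smad7, by 0.44 ± 0.13 (limma adjusted p = 0.0023 and 0.0213). Other Twsg1 probe sets differed by only 0.12 ± 0.14 and 0.15 ± 0.14. In pmel-1 recipients Twsg1 overlapped, at 10.31 and 9.97 with vehicle and 9.84, 9.97 and 10.25 with the combination. Of 9 other Smad target genes 2 fell and 0 rose, with a median of -0.19. These were Cdkn2b, a cell cycle inhibitor, by 1.82 ± 0.30, and Klf10 by 0.96 ± 0.29 (limma adjusted p = 8.07e-04 and 0.0222). The other 7 did not pass.

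Id proteins act by pairing with helix-loop-helix partners. Of 8 E proteins and other helix-loop-helix factors 3 fell and 0 rose, with a median of -0.07. Tcf3 fell by 0.62 ± 0.11, 1.54-fold, from 10.31 and 10.20 to 9.57 and 9.70 (limma adjusted p = 0.0013). Hes1, a Notch target, fell by 1.04 ± 0.25 and Twist1, a mesenchymal regulator, by 0.83 ± 0.28 (limma adjusted p = 0.0072 and 0.0388). The other E proteins Tcf4 and Tcf12, named after their values were seen, differed by 0.05 ± 0.17 and 0.10 ± 0.11 (limma adjusted p = 0.852 and 0.529). Of 13 genes of ERK output 5 fell and 1 rose, with a median of -0.84. Etv4, an ETS factor, fell by 3.30 ± 0.12, 9.87-fold, Egr1 by 1.97 ± 0.34 and Ier3 by 0.90 ± 0.15 (limma adjusted p = 9.14e-08, 0.0012 and 7.63e-04). The median of all genes tested was -0.0032.

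**Figure D4:**
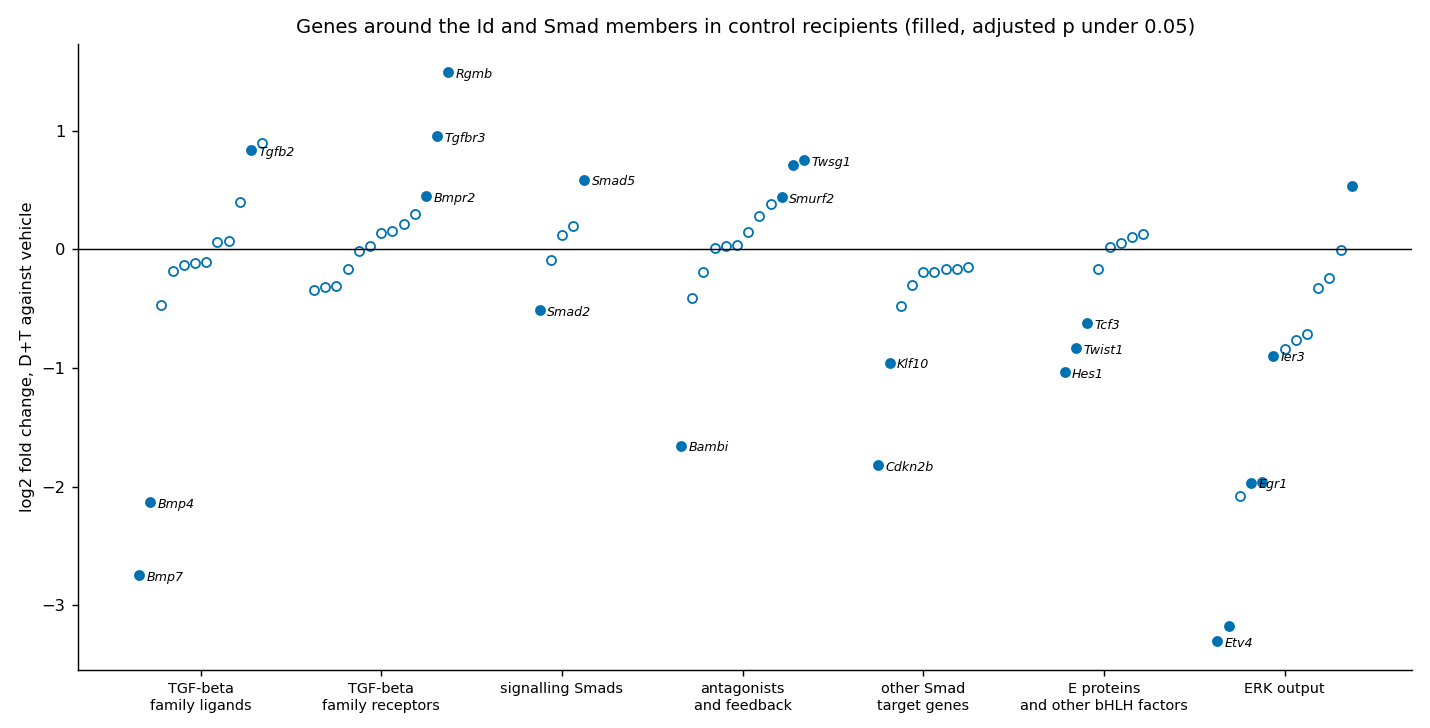
Log2 fold change of the combination (D+T) against vehicle in control recipients for each tested gene of 7 lists around the members (points; filled where limma's adjusted p was under 0.05), with the genes named by rule labelled. Bmp7, Bmp4 and Bambi lie between -2.75 and -1.65, the receptors that passed lie above 0, and Bmp4 is under the filter level on both combination arrays.

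Across the 13 arrays the members fell into sets with like profiles, given as descriptions since arrays of a group share a treatment. Pearson's r was 0.98 between Id1 and Id3, 0.90 between Smad7 and each of them, and 0.71 and 0.62 between Id4 and Id1 or Id3. Smad6 ran with Id2 (r = 0.79) and less with Id3 (r = 0.45), and Id2 and Id3 had r = 0.12. Both Id2 (10.78) and Smad6 (8.17) were highest on pmel-1 vehicle replicate 1, and r without that array was not computed. Leaving out the members themselves, the profile most like that of Id3 over the genes tested was Adgrg2, an adhesion receptor (r = 0.98), followed by Smarce1, Mnat1, Arhgap28 and Tns2 (r = 0.98 to 0.97). Adgrg2 read 7.30 to 7.72 on the vehicle arrays, 6.07 to 6.26 with trametinib and 5.43 to 5.85 on the other drug-treated arrays. It had the same 3 tiers as Id3, but its lowest tier lay around the filter level of 5.79. For Id1 the most alike were Emd, Ntm and Mnat1 (r = 0.99 to 0.98), and for Smad7 Thnsl1, Col2a1 and Larp1b (r = 0.97 to 0.96). Id4 was most like Etv5, an ERK-driven ETS factor (r = 0.97), then Nwd2 and Arap2 (r = 0.96 and 0.95). Etv5 read 11.74 to 12.13 on the vehicle arrays and from 7.27 to 11.39 on the dabrafenib arrays, which disagreed for Id4 as well. Id2 was most like Klf6, Taf8 and Jdp2 (r = 0.88 to 0.86). Smad6 was most like Hrk, Ier5 and Klf2 (r = 0.90 to 0.88), and Klf2 read 9.43 on 1 pmel-1 vehicle array and 7.20 on the other. Hrk hardly varied, from 6.60 to 6.90 over all arrays.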

How the data were processed

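SM1 tumour RNA was measured on 13 arrays in 6 groups of 2 or 3. The authors deposited log2 intensities per probe set, made with RMA and affy per the submitters' processing notes, without versions. RMA subtracts background, quantile-normalizes and summarises probes, which compresses low values. Of 45101 probe sets 34945 had 1 gene symbol, 932 had several and 9160 had none. For each gene the probe set with the highest mean was kept, and genes above the 40th percentile (5.79) in at least 2 arrays were tested. One limma 3.58.1 fit of 6 group means in R 4.3.3 used all 13 arrays (7 residual degrees of freedom), with two-sided tests and Benjamini-Hochberg adjustment within each comparison. The fit was tested on simulated data. The number of arrays limits the precision.

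The members, gene lists and tests were chosen with earlier results of these data known. From each list of pathway genes, the text names up to 3 called genes with the smallest p whose control-recipient groups do not overlap. Tcf4 and Tcf12 are named outside this rule, and marker genes as values beside a result. Likeness is Pearson's r, with the 5 highest for Id3 and 3 for each other member. Alternatives were other probe sets, filters, normalization, samples, weights, variance models, a replicate block, adjustment for the 3′ to 5′ control ratio, and leaving out each array.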

Additional observations from a re-analysis of the deposited data

How the results depend on the processing

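Of 939 recomputed values of single members, under 11 alternatives and the leaving out of each of 13 arrays, 892 kept their direction and side of the threshold or moved within the spread. The falls of Id1 and Id3 with the combination in control recipients passed under every one of their 15 alternatives, from -2.52 to -1.83 and from -2.66 to -2.15.

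The replicate numbers did not pair the arrays (23 same-number pairs, r from -0.46 to 0.45, 4 over 0.1). With the replicate block, Smad7 in control recipients was -0.57 (limma adjusted p = 0.0851), Id4 between recipients under vehicle was 0.084, and 1 member fell with trametinib. The block gave 12 genes for dabrafenib added to trametinib, 232 for the transfer under the combination and 1 for the interaction. No other member's call changed with it.

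Adjusted for the 3′ to 5′ ratio, which is confounded with drug treatment in pmel-1 recipients, genes changed numbered 2756 for the combination and 3371 for trametinib in pmel-1 recipients, 46 and 2 for the transfer under the combination and vehicle, and 0 for the interaction. Signs turned for Id4 with the combination in pmel-1 recipients (0.16), for Id2, Id4 and Smad7 between recipients under the combination (-0.28, 0.66 and 0.10), for Id2 with dabrafenib added to trametinib (-0.081), and for Id4 and Smad7 in the interaction (0.80 and 0.017). The described differences of Id4 and Smad7 with dabrafenib alone became 0.24 and -0.54. The cause was not tested.

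With every probe set as its own feature, more features being tested, the counts were 7681 (combination, control recipients), 10887 (combination, pmel-1), 9199 (trametinib) and 88 (interaction). Array weights gave 286 for dabrafenib added to trametinib, 65 for the interaction and 5 for the transfer under vehicle. Fitting only the arrays compared gave 90 for the interaction, 378 for the transfer under the combination and 2 under vehicle. The transfer under vehicle gave 3 genes without the filter and 1 with quantile normalization, and the interaction gave 10 with median centring. The count of members that fell with trametinib was 1 with the probe set of largest interquartile range, without the filter, with quantile normalization and with the intensity trend and robust variance.

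Leaving out 1 array gave 0 to 102 genes for dabrafenib added to trametinib, against 151, and 0 without trametinib replicate 2. It gave 119 to 1033 for the transfer under the combination, against 584, the highest without pmel-1 replicate 3, then 0 to 48 under vehicle and 0 to 33 for the interaction, against 39, and 1 to 3 members for trametinib. Ranges of tested members that crossed 0 were Smad6 in control recipients with the combination (-0.079 to 0.45), between recipients under the combination (-0.34 to 0.20) and with dabrafenib added to trametinib (-0.18 to 0.072), Id2 (-0.17 to 0.22) and Id4 (-0.035 to 0.46) in the last of these, Id2 in pmel-1 recipients with the combination (-0.78 to 0.28) and trametinib (-0.81 to 0.25), and Id4 (-0.15 to 0.027) and Smad7 (-0.19 to 0.41) between recipients under vehicle. Among described differences, so did those of Id4, Smad6 and Smad7 between the combination and dabrafenib (-0.92 to 0.72, -0.59 to 0.50 and -0.26 to 0.11) and of Id2, Id4 and Smad6 between dabrafenib and trametinib (-0.59 to 0.021, -0.52 to 1.13 and -0.58 to 0.51).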
